A study of Mus musculus with 8 samples.

Results

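The genes described here are 5 subunits of the transcription factor NF-kB (Nfkb1, Nfkb2, Rela, Relb and Rel) and 5 genes that NF-kB induces and that act back on the pathway (Nfkbia, Nfkbie, Nfkbiz, Tnfaip3 and Birc3). They were taken by name from the table of raw read counts. All 10 were found once each among its 55450 genes, and all 10 passed the filter on low counts that left 16662 genes for testing. RNA came from c-Kit-positive cells, labelled as precursors infiltrating the tumour, that were pulled on magnetic beads from digested B16F10 tumours, a pigmented mouse melanoma line. The hosts were wild-type C57BL6 mice 6 weeks old, tumours were started by subcutaneous injection of 150000 cells, and tissue was taken on day 17. The injected cells carried either a scramble control (4 libraries, numbered 2 to 5) or a knockout of PERK (4 libraries, numbered 1 to 4), so the alteration was in the tumour cells and the hosts of both groups were wild-type. The labels do not give the knockout allele or say whether each line was 1 clone, and they name a tumour of its own for each library but not a mouse. The p-values therefore measure the spread between these tumours.

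NF-kB proteins bind DNA as pairs drawn from the 5 subunits, and in resting cells they are held in the cytoplasm by IkB proteins. Signals from receptors of the TNF, interleukin-1 and Toll-like families lead to loss of the IkB proteins, after which the pairs enter the nucleus and switch on genes that include their own inhibitors. Transcripts of these inhibitors are for that reason widely used as a readout of the pathway. A separate branch, set off by receptors such as CD40 and the lymphotoxin receptor, stabilises the kinase encoded by Map3k14 and leads to processing of the Nfkb2 product, which pairs with the Relb product. PERK, encoded by Eif2ak3, senses unfolded protein in the endoplasmic reticulum and, once active, lowers protein synthesis.

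The scramble libraries held 44950033 to 56697163 counts each, and the PERK-deficient ones 29006949 to 47530393. Levels are given as CPM, read counts adjusted for the depth of each library by the usual counts-per-megaread scaling, and 3 counts in the shallowest library amount to 0.1 CPM, far below every value of the 10 genes. Eif2ak3 lay between 48.3 and 59.2 CPM in scramble and between 7.73 and 22.7 CPM in PERK-deficient tumours, and the groups were apart in the direction of the labels. Kit, the receptor used for the pull-down, had 196 ± 23.7 and 175 ± 37.8 CPM (SD, n = 4 each). All 12 blood progenitor markers in a list of such genes passed the filter. In the same libraries 13 melanocyte and melanoma markers together took between 25416 and 25998 CPM in scramble and between 16804 and 20426 CPM in PERK-deficient tumours. Of these 13 markers 9 fell, against 6.13% of all genes tested. Transcripts typical of the tumour cells were therefore present in every library. In bulk RNA of this kind, fewer cells of a type and less RNA per cell cannot be told apart.

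Of the 10 genes, 5 rose in PERK-deficient tumours and none fell (edgeR quasi-likelihood test, Benjamini-Hochberg adjusted p under 0.05). Over all genes tested, 7.66% were called higher and 6.13% lower. At an unadjusted p under 0.05, 7 of the 10 were higher and none lower, and neither DESeq2 nor limma voom called any of them lower. The 5 that rose were the inhibitors Tnfaip3, Nfkbia, Birc3 and Nfkbiz and the subunit Rel. In these same 5 every PERK-deficient library lay above every scramble library, against 10.2% of all genes tested in that direction and 21.3% in either. The median log2 change of the 10 was 1.12, with a range from 0.27 to 2.06, and that of all genes tested was -0.02. The other members were Nfkb1, Nfkb2, Rela, Relb and Nfkbie, whose groups overlapped.

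**Figure D1:**
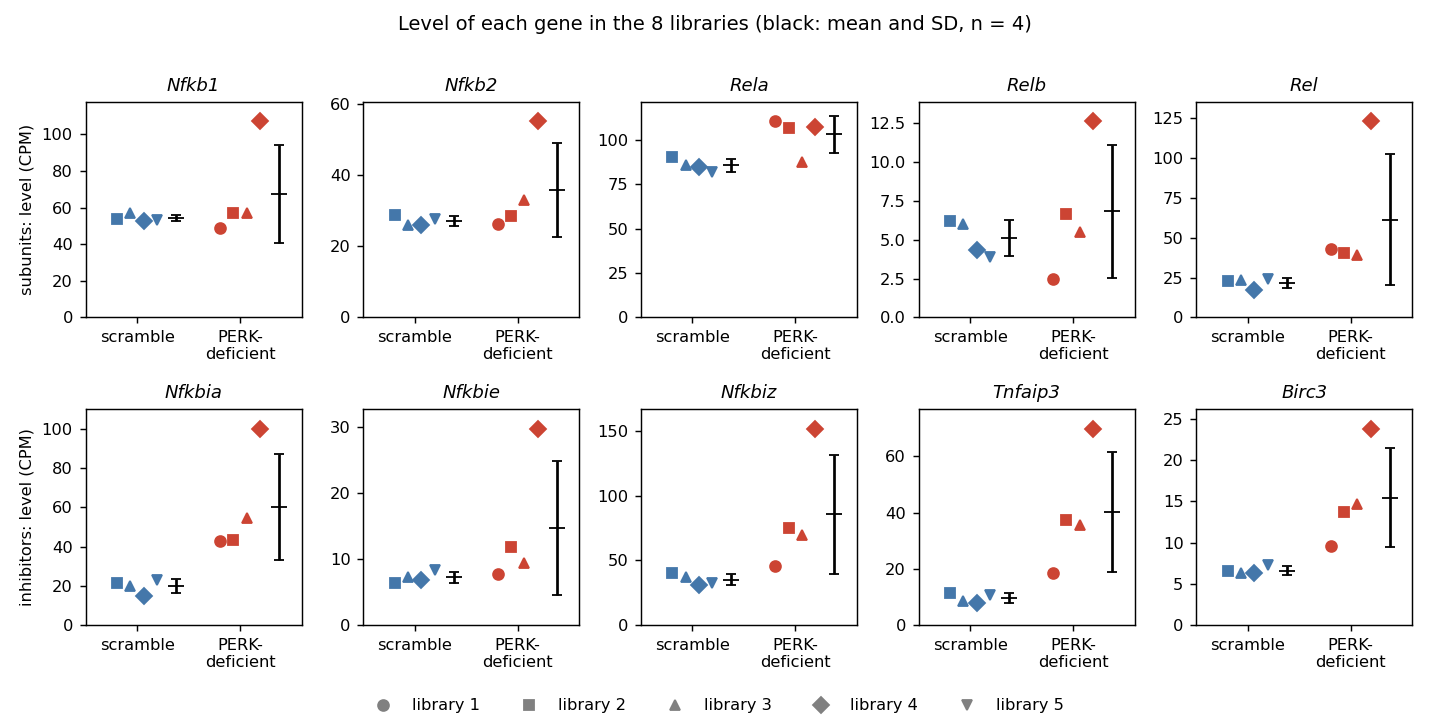
Level of each of the 10 genes in CPM (vertical axes, from 0) in the 4 scramble and the 4 PERK-deficient libraries, with subunits in the upper row and inhibitors in the lower row. Symbols mark the library number, and the black bars give the mean and SD of each group. The groups are apart for Rel, Nfkbia, Nfkbiz, Tnfaip3 and Birc3, and library 4 is the highest PERK-deficient library for every gene but Rela.

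Tnfaip3, which encodes a ubiquitin-editing enzyme that shuts off signalling from TNF and Toll-like receptors, rose most. It had 11.5, 8.47, 7.82 and 10.7 CPM in scramble libraries 2 to 5, and 18.4, 37.4, 35.4 and 69.8 CPM in PERK-deficient libraries 1 to 4. The lowest PERK-deficient library was above the highest scramble library, and the 4 PERK-deficient libraries spanned a 3.80-fold range. The log2 change was 2.06 (SE 0.34, 95% interval 1.296 to 2.83, n = 4 and 4, edgeR adjusted p = 0.00473), a 4.18-fold difference. The gene lies on chromosome 10 from 19000910 to 19015657 (mm10, GENCODE M21).

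Nfkbia encodes IkB alpha, the inhibitor that is destroyed first after stimulation and quickly made again. Its levels were 21.5, 20.02, 14.6 and 23.1 CPM in scramble libraries 2 to 5 and 42.9, 43.2, 54.8 and 100.2 CPM in PERK-deficient libraries 1 to 4. Every PERK-deficient library thus lay well above the scramble range. The log2 change was 1.61 (SE 0.27, 95% interval 0.998 to 2.21, edgeR adjusted p = 0.00512). The gene lies on chromosome 12 from 55489410 to 55492647.

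Birc3 encodes a ubiquitin ligase that takes part in TNF receptor signalling and in the breakdown of the kinase made from Map3k14. It had 6.54, 6.32, 6.26 and 7.31 CPM in scramble libraries 2 to 5. PERK-deficient libraries 1 to 4 had 9.61, 13.7, 14.7 and 23.8 CPM, again with no overlap. Birc3 rose by 1.22 on the log2 scale (SE 0.25, 95% interval 0.67 to 1.78, edgeR adjusted p = 0.00962). It lies on chromosome 9 from 7848699 to 7873186.

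Nfkbiz encodes an IkB protein of the nucleus that holds back some NF-kB targets and is needed for the induction of others, so it is not an inhibitor alone. Levels were 40.2, 37.1, 30.7 and 32.3 CPM in scramble libraries 2 to 5 and 45.5, 74.8, 69.6 and 151.6 CPM in PERK-deficient libraries 1 to 4. PERK-deficient library 1 was only a little above the highest scramble library. Nfkbiz rose by 1.28 on the log2 scale (SE 0.33, 95% interval 0.54 to 2.02, edgeR adjusted p = 0.0328). Its position is chromosome 16, 55811375 to 55838899. The call was lost without scramble replicate 2, 3, 4 or 5 (edgeR adjusted p = 0.072, 0.0943, 0.0744 and 0.0941), and also when PERK_KO replicate 2 was left out (0.0535). The log2 change of Nfkbiz was 0.85 without PERK_KO replicate 4, where the call held (edgeR adjusted p = 0.009).

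Nfkbie encodes IkB epsilon, an inhibitor that is remade more slowly than IkB alpha. It had 6.43, 7.35, 6.85 and 8.32 CPM in scramble libraries 2 to 5 and 7.67, 11.9, 9.47 and 29.7 CPM in PERK-deficient libraries 1 to 4. PERK-deficient library 1 lay within the scramble range, and library 4 was far above the other 3. The log2 difference of 1.02 (SE 0.37, 95% interval 0.22 to 1.83) did not pass (edgeR adjusted p = 0.0919). It became 0.42 without PERK_KO replicate 4 (adjusted p = 0.281), and it passed without PERK_KO replicate 1 (0.0442) and with DESeq2 (0.0372). The gene lies on chromosome 17 from 45555703 to 45563169.

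Among the subunits, Rel passed the test. Rel encodes c-Rel, a subunit of lymphoid and myeloid cells with a domain that activates transcription. It had 22.5, 23.2, 17.3 and 24.4 CPM in scramble libraries 2 to 5 and 42.6, 40.4, 39.1 and 122.99 CPM in PERK-deficient libraries 1 to 4. Of these, 3 PERK-deficient libraries sat close together above the scramble range, and library 4 stood apart from them. Rel rose by 1.49 on the log2 scale (SE 0.38, 95% interval 0.61 to 2.36, edgeR adjusted p = 0.0359). Without PERK_KO replicate 4 the change was 0.89 and still passed (edgeR adjusted p = 0.00246). Without scramble replicate 2, 3, 4 or 5 the call was lost (adjusted p = 0.0947, 0.103, 0.08 and 0.0873). Rel lies on chromosome 11 from 23736847 to 23770970.

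Rela encodes the subunit that carries most of the activating capacity of the pathway in most cells. Its levels were 90.7, 85.8, 84.8 and 81.8 CPM in scramble libraries 2 to 5 and 110.6, 106.5, 87.8 and 107.4 CPM in PERK-deficient libraries 1 to 4. PERK-deficient library 3 lay within the scramble range and the other 3 lay above it. The log2 difference was 0.27 (SE 0.09, 95% interval 0.06 to 0.47, edgeR adjusted p = 0.0818), so a 1.38-fold difference was at the upper end of the interval. It passed with DESeq2 (adjusted p = 0.0165), with RLE and upper-quartile factors (0.0475 and 0.0306), with a stricter filter on low counts (0.0228) and without PERK_KO replicate 3 (edgeR adjusted p = 0.0171). Rela lies on chromosome 19 from 5637483 to 5648130.

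Nfkb1 and Nfkb2 encode long precursors that act as inhibitors and are trimmed to DNA-binding subunits. Nfkb1 had 53.8, 56.8, 52.9 and 53.3 CPM in scramble libraries 2 to 5 and 48.7, 57.2, 56.8 and 107.1 CPM in PERK-deficient libraries 1 to 4. Only library 4 departed from the scramble level by much, and the log2 difference of 0.32 (SE 0.21, 95% interval -0.14 to 0.77, edgeR adjusted p = 0.389) became -0.0022 without PERK_KO replicate 4 (adjusted p = 0.993). Nfkb2 had 28.8, 26.1, 25.97 and 27.6 CPM in scramble libraries 2 to 5 and 26.2, 28.6, 33.1 and 55.2 CPM in PERK-deficient libraries 1 to 4. Its log2 difference was 0.40 (SE 0.20, 95% interval -0.05 to 0.84, edgeR adjusted p = 0.242), and it was 0.11 without PERK_KO replicate 4 (adjusted p = 0.655). The profiles of these 2 genes over the 8 libraries were closer to each other than those of any other pair among the 10, with a root mean square difference of 0.0946 on the log2 scale after centring. Nfkb1 lies on chromosome 3 from 135584655 to 135691547 and Nfkb2 on chromosome 19 from 46304320 to 46312385. Nfkb1 overlaps Gm43430, an annotated gene of unproven status, on its own strand, and Nfkb2 overlaps Psd and AC114539.1 on the other strand, so that reads of these genes may be mixed.

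Relb encodes the partner of the processed Nfkb2 product. It had 6.17, 5.98, 4.31 and 3.89 CPM in scramble libraries 2 to 5. PERK-deficient libraries 1 to 4 had 2.48, 6.66, 5.48 and 12.6 CPM, so that both the lowest and the highest of the 8 libraries were PERK-deficient. The log2 difference was 0.42 (SE 0.42, 95% interval -0.49 to 1.33, edgeR adjusted p = 0.604) and became -0.063 without PERK_KO replicate 4 (adjusted p = 0.945). Relb lies on chromosome 7 from 19606217 to 19629438. Its interval is the widest of the 10 and leaves room for a change in either direction.

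**Figure D2:**
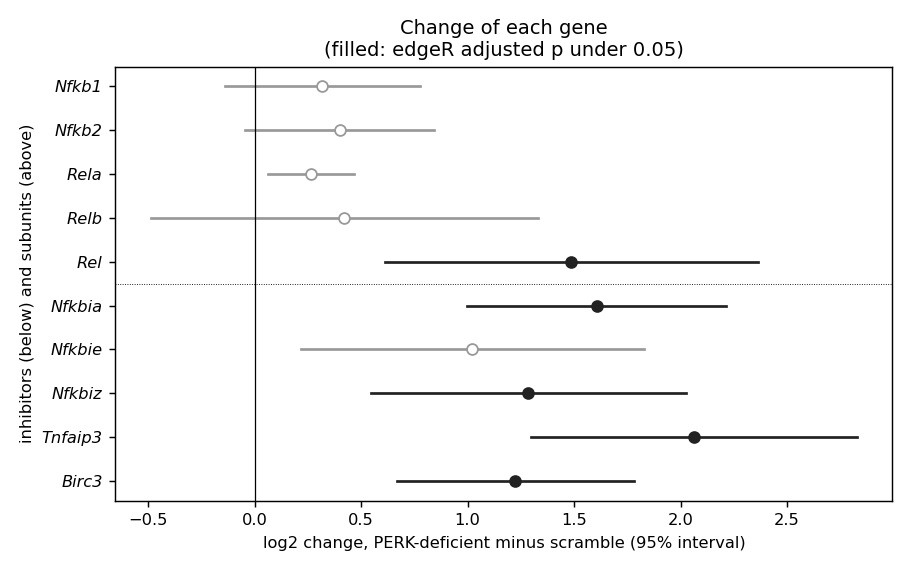
Log2 change of each gene, PERK-deficient minus scramble (horizontal axis), as the edgeR estimate with its 95% interval over 4 and 4 libraries. Filled points passed an adjusted p of 0.05: Rel among the subunits, and Nfkbia, Nfkbiz, Tnfaip3 and Birc3 among the inhibitors.

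Without scramble replicate 2, 3, 4 or 5, 3 of the 10 genes passed each time, and these were Birc3, Nfkbia and Tnfaip3. The numbers of all genes called higher without these libraries were 791, 639, 874 and 771, against 1277 with all of them. Without PERK_KO replicate 4 the same 5 genes passed as with all 8 libraries. Tnfaip3 passed in each of the 18 alternative settings. The log2 change of Tnfaip3 ranged from 1.57 to 2.32 over them.

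NF-kB binds the kappa B consensus, a motif of 10 bases, and the promoters of several of these genes hold it. Promoter sequences (250 bases before to 50 after the start of transcription, RefSeq, GRCm38.p6) were at hand for 7 of the 10 genes, namely Nfkb2, Rela, Rel, Nfkbia, Nfkbie, Tnfaip3 and Birc3. A search of both strands found the consensus in at least 1 promoter of 5 of these 7 (Nfkb2, Rel, Nfkbia, Nfkbie and Tnfaip3), against 9.55% of all 27025 genes with a promoter in the table. By promoter, 7 of the 10 belonging to these genes held it, against 8.46% of all 32851. The looser pattern GGGNNNNNCC, which every match to the consensus also fits, occurred on either strand in 50.8% of all promoters. It occurred in 10 of the 10 promoters of these 7 genes. Below, a match is to the consensus. Promoters of the strongest risers with a match, Tnfaip3, Nfkbia and Rel, are shown with that of Nfkb2, which has matches but did not pass the test. For Tnfaip3 and Nfkb2, which have 2 and 3 promoters in the table, the first is shown. Capitals mark the consensus on either strand, each promoter is written in the direction of its gene, and base 251 is the start of transcription.
Tnfaip3 (chr10:19015361-19015660, minus strand): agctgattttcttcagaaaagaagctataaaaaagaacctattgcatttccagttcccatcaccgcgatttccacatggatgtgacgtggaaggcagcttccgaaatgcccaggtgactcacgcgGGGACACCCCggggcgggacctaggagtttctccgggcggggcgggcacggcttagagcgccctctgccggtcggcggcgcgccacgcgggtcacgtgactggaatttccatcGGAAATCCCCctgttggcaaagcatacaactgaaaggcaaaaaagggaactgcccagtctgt
Nfkbia (chr12:55492598-55492897, minus strand): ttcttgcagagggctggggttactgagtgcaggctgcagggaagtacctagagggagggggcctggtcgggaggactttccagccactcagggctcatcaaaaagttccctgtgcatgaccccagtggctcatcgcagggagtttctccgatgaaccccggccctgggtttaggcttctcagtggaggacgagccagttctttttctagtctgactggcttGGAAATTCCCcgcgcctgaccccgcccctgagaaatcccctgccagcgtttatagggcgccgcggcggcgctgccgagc
Rel (chr11:23770920-23771219, minus strand): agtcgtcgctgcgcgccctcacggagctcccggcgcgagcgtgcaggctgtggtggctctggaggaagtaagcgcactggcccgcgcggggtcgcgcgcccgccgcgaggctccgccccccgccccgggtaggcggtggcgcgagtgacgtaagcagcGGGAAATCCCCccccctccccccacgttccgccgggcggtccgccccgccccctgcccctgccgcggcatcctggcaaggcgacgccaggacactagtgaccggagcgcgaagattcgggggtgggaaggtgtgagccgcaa
Nfkb2 (chr19:46304487-46304786, plus strand): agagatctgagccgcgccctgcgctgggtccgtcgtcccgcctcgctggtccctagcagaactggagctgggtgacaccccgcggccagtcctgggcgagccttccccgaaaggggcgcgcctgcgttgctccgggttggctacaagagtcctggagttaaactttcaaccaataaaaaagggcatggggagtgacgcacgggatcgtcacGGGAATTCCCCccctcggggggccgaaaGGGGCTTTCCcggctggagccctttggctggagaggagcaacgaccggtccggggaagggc
In Rel and in the upstream site of Nfkb2 the capitals cover 2 matches offset by 1 base. The matches begin at -125 and -12 in Tnfaip3, at -29 in Nfkbia, at -92 and -91 in Rel, and at -39, -38 and -11 in Nfkb2, counted from the start of transcription. The Nfkbia match is GGAAATTCCC and the site nearest the start in Tnfaip3 is GGAAATCCCC. Birc3, which rose, and Rela, which did not pass, had no match to the consensus in their 300-base window. A match is a run of letters, and binding was not measured here.

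To compare levels between genes, CPM were divided by the length of each gene's merged exons in kilobases. In scramble tumours Rela was highest at 27.9 ± 1.20 CPM per kilobase (SD, n = 4), followed by Nfkbia at 12.3 ± 2.30 and Nfkbiz at 6.99 ± 0.87. The ranges of Rela and Nfkbia did not overlap, nor did those of Nfkbia and Nfkbiz. Nfkb2 at 5.92 ± 0.30 overlapped Nfkbiz, and Nfkb1 at 4.49 ± 0.15 lay below it. Rel at 2.93 ± 0.42 and Nfkbie at 2.38 ± 0.27 CPM per kilobase overlapped each other. Tnfaip3, Birc3 and Relb, at 1.33 ± 0.25, 1.32 ± 0.10 and 1.31 ± 0.30, could not be ordered. In PERK-deficient tumours every neighbour in the order overlapped the next. Nfkbia came first with 37.4 ± 16.9 CPM per kilobase, ahead of Rela with 33.6 ± 3.36. Merged exons include rarely used transcripts, as in Nfkb1 with 12061 bases, and the level of a gene's main transcript was not estimated.

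**Figure D3:**
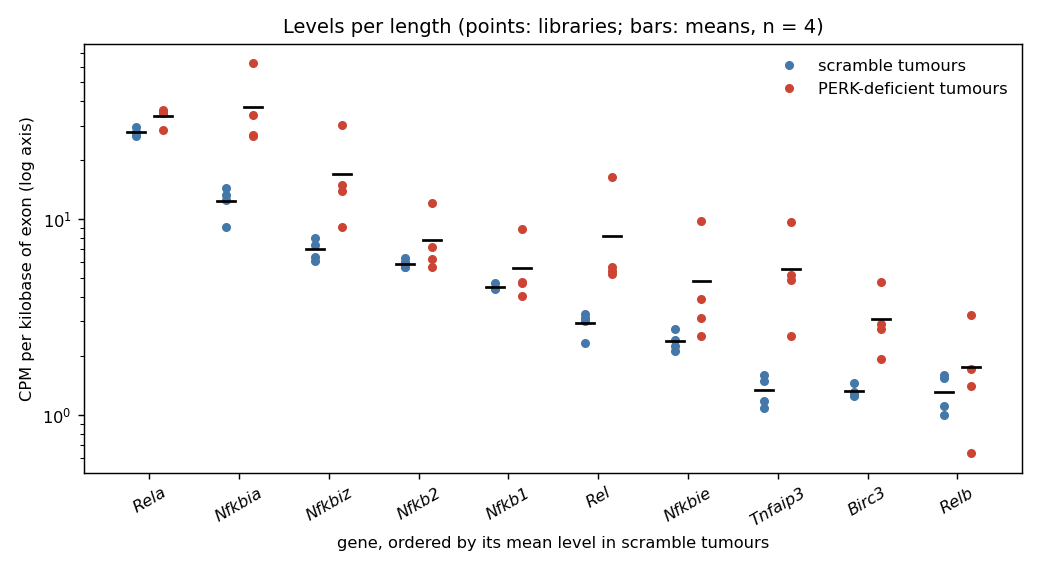
Levels in CPM per kilobase of merged exon (vertical log axis) for the 10 genes, ordered by their mean in scramble tumours (horizontal axis). Points are libraries and bars are group means (n = 4), and Nfkbia goes from 12.3 in scramble to 37.4 in PERK-deficient tumours while Rela goes from 27.9 to 33.6.

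The balance between inhibitor and subunit transcripts was also compared within each library, where scaling between libraries cancels. The ratio of Nfkbia to Rela, per length, was 0.451, 0.445, 0.329 and 0.539 in scramble libraries 2 to 5 and 0.740, 0.774, 1.19 and 1.78 in PERK-deficient libraries 1 to 4. Nfkbia was thus below Rela in each scramble library and above it in PERK-deficient libraries 3 and 4. The ratio of Nfkbia to Nfkb1 was 2.99, 2.64, 2.07 and 3.25 in scramble and 6.60, 5.66, 7.23 and 7.004 in PERK-deficient tumours. This ratio spread little within the PERK-deficient group, where Nfkbia itself ranged 2.33-fold. Between subunits, the ratio of Rel to Rela was 0.102, 0.111, 0.0839 and 0.123 in scramble and 0.159, 0.156, 0.183 and 0.471 in PERK-deficient tumours. The Nfkb2 to Nfkb1 ratio was 1.32 ± 0.09 and 1.41 ± 0.09 (SD, n = 4 each), with overlapping ranges. Since these genes were chosen with their changes known, the ratios are given as a description.

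The 10 genes varied more among PERK-deficient than among scramble libraries. The coefficient of variation ran from 3.29% (Nfkb1) to 22.7% (Relb) in scramble tumours and from 10.02% (Rela) to 69.3% (Nfkbie) in PERK-deficient tumours. PERK-deficient library 4 was the highest of its group for 9 of the 10 genes, all but Rela, and library 1 was the lowest for 8. Scramble library 4 was the lowest of its group for 7. The pan-leukocyte markers had their extremes in the same libraries. So did the sums of the mast cell, dendritic cell, B cell, T and NK cell and blood progenitor lists. PERK-deficient library 4 was also highest of its group for the monocyte and macrophage and simple epithelium lists. It was not for the neutrophil, endothelial, fibroblast and mural, or melanocyte and melanoma lists. The summed level of 20 pan-leukocyte markers was 186.8, 168.6, 112.8 and 176.2 CPM in scramble libraries 2 to 5 and 424.9, 680.2, 524.7 and 1596 CPM in PERK-deficient libraries 1 to 4. Library 4 was the highest and library 1 the lowest of the PERK-deficient group, and library 4 was the lowest of the scramble group. Of the 20 markers 19 rose, against 7.66% of all genes tested, with a median log2 change of 2.71.

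Lists of markers for single cell types were read in the same way. Over all genes tested, 7.66% were called higher and 6.13% lower. Of 12 mast cell markers 11 were tested and 11 rose, and their sum went from between 23.4 and 168.3 CPM in scramble to between 715 and 3151 CPM in PERK-deficient tumours. All 14 monocyte and macrophage markers rose, from a sum between 65.4 and 161.6 to one between 341.9 and 1059 CPM. Of 10 dendritic cell markers 9 were tested and 7 rose, and their sum went from between 19.7 and 59.5 to between 224.4 and 1296 CPM. Of 13 markers of simple epithelium 12 rose, from a sum between 5.77 and 7.93 to one between 105.05 and 272.3 CPM. The largest log2 change in this list was 12.1. A marker with such a change was next to 0 in scramble and passed the low-count filter through the PERK-deficient group. The count of 12 is therefore not support by itself. The 10 neutrophil markers, of which 2 were tested and 1 rose, were low, between 0.58 and 2.11 CPM in scramble and between 1.64 and 12.7 CPM in PERK-deficient tumours, and Camp, Ly6g, Mpo and Ngp had no count in any library. T and NK cell markers summed to between 0.715 and 2.34 and between 2.85 and 43.8 CPM. Of these, edgeR called 0 of 7 tested, with 3 higher at an unadjusted p under 0.05, while DESeq2 called 2 higher and limma voom 1. B cell markers, with 3 of 6 tested higher, summed to between 3.57 and 18.4 and between 41.6 and 246.6 CPM. Of the 12 blood progenitor markers, the class the cells are labelled as, 3 rose, and none was called lower by edgeR, DESeq2 or limma voom (1 at an unadjusted p under 0.05), with sums between 296.9 and 372.6 CPM in scramble and between 317 and 466.5 CPM in PERK-deficient tumours. Kit is part of these sums, with 169.7 to 223.4 CPM in scramble and 139.2 to 211 CPM in PERK-deficient tumours. Gata2, named after its values were seen, was among the 3 and is in the mast cell list too. Endothelial markers summed to between 39.03 and 203.2 and between 75.9 and 283.2 CPM, with 0 of 10 called by edgeR, DESeq2 or limma voom and 1 higher at an unadjusted p under 0.05. Fibroblast and mural markers summed to between 22.9 and 251.3 and between 68.5 and 261.9 CPM, and 1 of 10 rose, near the share of all genes tested. The part of any of these cells in the levels of the 10 genes was not tested.

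**Figure D4:**
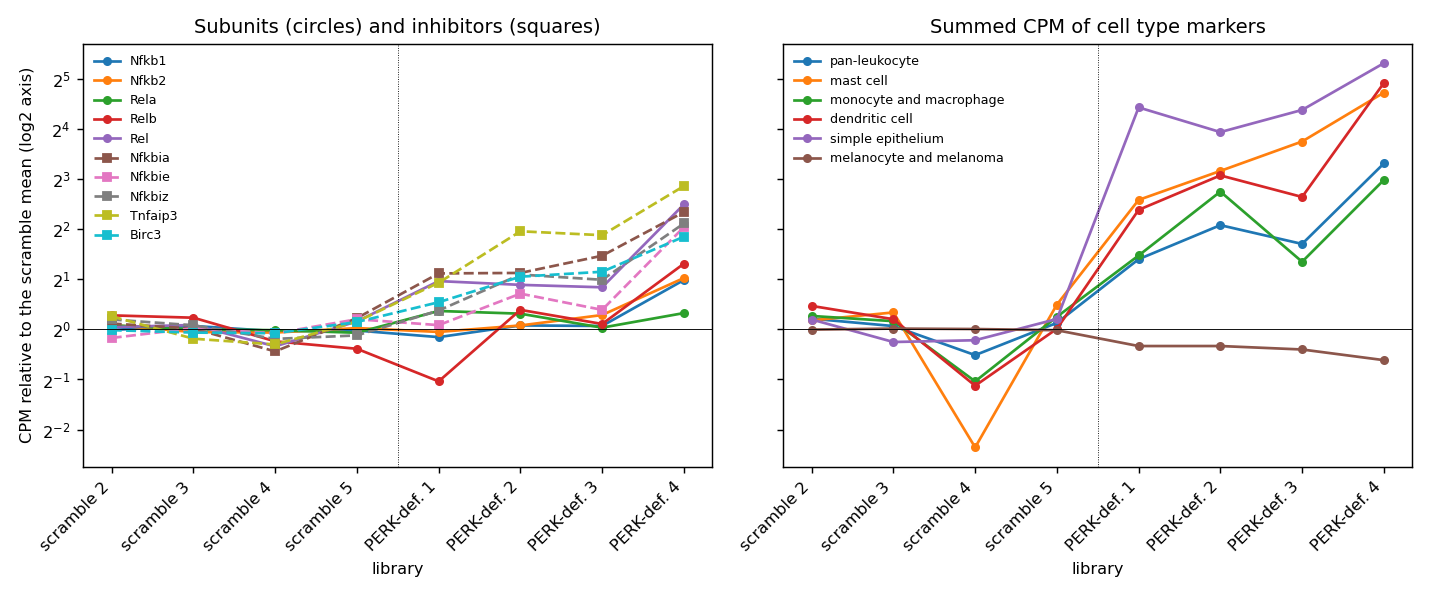
CPM of the 10 genes (left) and summed CPM of 6 cell type marker lists (right) in each library, relative to the mean of the 4 scramble libraries (vertical log2 axis). Lines only join the values of 1 gene or list, and the dotted line parts the groups. PERK-deficient library 4 is highest for 9 of the 10 genes and for the leukocyte, mast cell, macrophage, dendritic cell and epithelial lists, while the melanocyte and melanoma list is lower in every PERK-deficient library.

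The rest of the pathway was read from lists of ligands, receptors, signalling proteins, other inhibitors and targets. Over all genes tested, 7.66% were called higher and 6.13% lower. Among 12 ligands, 7 passed the filter and 5 rose (Il1b, Il18, Tnfsf11, Il33 and Tnf), with a median log2 change of 1.62 over the 7. Il1b, the inflammatory cytokine interleukin 1 beta, had 4.24, 3.59, 1.17 and 3.39 CPM in scramble libraries 2 to 5 and 27.5, 24.1, 13.7 and 108.9 CPM in PERK-deficient libraries 1 to 4. Every PERK-deficient library was above the scramble range (log2 change 3.81, SE 0.76, edgeR adjusted p = 0.0162). The Il1b change was 2.81 without PERK_KO replicate 4, and the call ended without scramble replicate 3 (adjusted p = 0.0614) or 5 (0.0511). Il18 went from 4.03 ± 0.36 to 9.34 ± 3.34 CPM and the alarmin Il33 from 1.88 ± 0.998 to 5.11 ± 1.35 CPM (SD, n = 4 each). For Tnfsf11, the ligand RANKL, all scramble libraries were at 0 and the PERK-deficient mean was 0.530 ± 0.23 CPM. With 3 counts over all 4 scramble libraries as the floor, this was at least 37.3-fold higher. Tnfsf11 passed the low-count filter through the PERK-deficient group alone, so its call among the 5 is not support by itself. The median over the 7 ligands was also 1.62 with Tnfsf11 set at this bound. The Il18 call ended without scramble replicate 2, 3 or 4 (edgeR adjusted p = 0.0536, 0.0521 and 0.0545). The Tnfsf11 call ended without any 1 scramble library (0.0735, 0.0861, 0.0732 and 0.0716 without replicates 2 to 5), and also when PERK_KO replicate 2 was left out (0.0556). The Il33 call ended without scramble replicate 3, 4 or 5 (0.125, 0.115 and 0.115) and also when PERK_KO replicate 1, 2 or 3 was left out (0.0873, 0.067 and 0.0548). Tnf, named after its values were seen, was at 0.615 ± 0.56 and 7.14 ± 6.30 CPM (edgeR adjusted p = 0.0498). The Tnf call ended without scramble replicate 2, 3 or 5 (edgeR adjusted p = 0.0873, 0.111 and 0.136), without PERK_KO replicate 2 or 4 (0.0856 and 0.102), with RLE factors (0.0519), with library totals (0.0521) and with no filter (0.144).

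Of 13 receptors 12 were tested and 4 rose, against 7.66% of all genes tested. Il1rl1, the receptor for interleukin 33 and a mast cell marker, went from 3.30 ± 1.75 to 37.9 ± 20.7 CPM (SD, n = 4 each). Tnfrsf1b, a TNF receptor of blood cells, rose by 2.92 on the log2 scale (SE 0.59) and Tlr2, a receptor for bacterial lipoproteins, by 2.05 (SE 0.43), each with an edgeR adjusted p under 0.05. Tnfrsf11a, the receptor for the Tnfsf11 product, rose by 3.29 (SE 0.93, edgeR adjusted p = 0.042). It was at 0.0217 CPM in scramble library 4 and would not have passed the low-count filter on the scramble libraries alone. Its call is therefore not support by itself. The Tnfrsf11a change was 2.46 without PERK_KO replicate 4 and no longer passed (adjusted p = 0.097). It was 3.90 without scramble replicate 3 (0.0607), and it also missed without scramble replicate 2 (0.0913), scramble replicate 5 (0.114) or PERK_KO replicate 2 (0.0588).

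Of 31 adaptors and kinases, all tested, 8 rose, against 7.66% of all genes tested, with a median log2 change of 0.03. They included Traf1, Map3k14, Malt1, Irak3, Myd88, Traf5 and Ripk1. Traf1, an adaptor that NF-kB induces, went from 1.48 ± 0.48 to 18.1 ± 13.03 CPM (log2 change 3.61, SE 0.49, edgeR adjusted p = 0.00153), and its change was 3.01 without PERK_KO replicate 4. Map3k14, the kinase at the head of the Nfkb2 branch, rose by 1.43 (SE 0.24, edgeR adjusted p = 0.00341). Malt1, a protease that links antigen receptors to NF-kB, rose by 0.88 (SE 0.22). The Malt1 call ended without any 1 scramble library (edgeR adjusted p = 0.0653, 0.0697, 0.0546 and 0.0717 without replicates 2 to 5). The Malt1 change was 0.57 without PERK_KO replicate 4 (edgeR adjusted p = 0.0273). The kinases that phosphorylate IkB proteins, named after their values were seen, had near-equal means: Chuk had 39.2 ± 2.26 and 40.1 ± 6.50 CPM and Ikbkb 62.7 ± 2.38 and 63.7 ± 8.93 CPM. The 95% intervals of their log2 differences were -0.24 to 0.30 and -0.21 to 0.26. Ikbkg, their regulatory partner, was lower in every PERK-deficient library, at 27.9 ± 2.28 and 21.2 ± 2.74 CPM, but did not pass (edgeR adjusted p = 0.0689). Ikbkg passed as lower with library totals (edgeR adjusted p = 0.0359) and without PERK_KO replicate 2 (0.0494). With all 8 libraries and TMM factors none of the 31 was called lower by edgeR, and 3 were lower at an unadjusted p under 0.05. DESeq2 and limma voom called none lower, and edgeR called Traf3, named after its values were seen, lower without PERK_KO replicate 1.

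Of 14 other IkB proteins and inhibitors, all tested, 3 rose (Tnip3, Zc3h12a and Nfkbid), against 7.66% of all genes tested. The median log2 change of the 14 was 0.34. Tnip3, which binds the Tnfaip3 product, went from 0.219 ± 0.10 to 2.57 ± 1.47 CPM (edgeR adjusted p = 0.00941). Zc3h12a, a ribonuclease that degrades cytokine mRNA, rose by 1.49 (SE 0.39) on the log2 scale, a call that ended without any 1 scramble library (edgeR adjusted p = 0.0592, 0.0593, 0.067 and 0.0773 for replicates 2 to 5). It ended likewise without PERK_KO replicate 4, at a log2 change of 0.98 (0.0606). Nfkbid, a nuclear IkB protein, rose by 3.54 (SE 0.96), but by 2.25 without PERK_KO replicate 4, where its call ended (0.0608). The Nfkbid call also ended without scramble replicates 2 to 5 (0.122, 0.139, 0.0589 and 0.0608) or PERK_KO replicate 2 (0.0571). Tnip3 and Nfkbid were too low in scramble library 4 to pass the low-count filter on the scramble libraries alone. The calls of Tnip3 and Nfkbid among the 3 are therefore not support by themselves. Nfkbib, which encodes IkB beta and was named after its values were seen, had 43.3 ± 3.32 and 41.7 ± 5.86 CPM (SD, n = 4 each, 95% interval of the log2 difference -0.31 to 0.20). Bcl3, named in the same way, missed the threshold with 8.66 ± 2.53 and 19.4 ± 11.8 CPM (edgeR adjusted p = 0.053). Bcl3 passed with DESeq2 (adjusted p = 0.00903), upper-quartile factors (0.0387), the stricter filter (0.0454) and without PERK_KO replicate 2 or 3 (0.0429 and 0.0398). Its log2 difference went from 1.16 to 0.64 without PERK_KO replicate 4 (edgeR adjusted p = 0.118).

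Of 33 target genes 30 were tested and 13 rose, against 7.66% of all genes tested, with a median log2 change of 1.70. Lcn2, an iron-binding protein that epithelium and neutrophils secrete, rose most among those named, from 1.07 ± 0.46 to 57.1 ± 20.3 CPM (log2 change 5.73, SE 0.38, edgeR adjusted p = 5.31e-05). The chemokines Ccl5 and Cxcl16 rose by 2.88 (SE 0.37) and 2.79 (SE 0.47). Ier3, an early response gene, went from 57.8 ± 4.19 to 83.2 ± 9.78 CPM (SD, n = 4 each, edgeR adjusted p = 0.00766). The others called higher, listed by name alone, were Ccl2, Cxcl2, Ccl3, Icam1, Irf1, Plau, Il12b, Cd83 and Ptgs2. In the ligand, receptor, inhibitor and target lists none was called lower by edgeR with all libraries, by DESeq2 or by limma voom, nor was any lower at an unadjusted p under 0.05.

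The genes whose profiles over the 8 libraries lay nearest to each of the 10 were taken from 10930 genes by the root mean square difference of centred log2 CPM. Srpr, a subunit of the receptor that docks ribosomes to the endoplasmic reticulum, was nearest to Rela (0.0413), followed by Sec31a, a coat protein of vesicles leaving the endoplasmic reticulum (0.0497). Rps6ka1 was nearest to Nfkb2 (0.0788) and among the 2 nearest to Nfkb1 (0.0955). Rab11fip1 and Tap2, a peptide transporter for MHC class I, were nearest to Rel (0.126 and 0.144). Rinl and Pmp22 were nearest to Nfkbia (0.0983 and 0.171). Trim30a and Ano1 were nearest to Tnfaip3 (0.167 and 0.2), and Epb41l4b and Lipe to Nfkbie (0.161 and 0.195). H2-K1, an MHC class I gene, was among the 2 nearest to both Nfkbiz (0.121) and Birc3 (0.122), with Csrnp1 (0.138) and Tsc22d3 (0.103). Map4k1 and Zcchc24 were nearest to Relb, at the greatest distances (0.220 and 0.279). Reads of H2-K1 can also match other MHC class I genes, so its level is uncertain.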

How the data were processed

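RNA from 8 libraries was read as pairs of 105 bases from strand-specific libraries made with 100 ng of RNA, per the labels' protocols. Tools named in the submitters' processing notes are STAR 2.5.3a, HTSeq 0.6.1, DESeq2 1.30.1 and bcl2fastq, with the build mm10 and no settings, so the strand setting and the treatment of overlapping genes are not given in the sources used here. The deposited raw table holds read counts per gene. The deposited normalized table holds a signal, these counts divided by 1 factor per library by the authors, and served only as a check.

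Genes were filtered with filterByExpr by group, scaled with TMM and tested with the robust quasi-likelihood fit of edgeR 4.0.16 (~ group) with a threshold of 0.05 on the Benjamini-Hochberg adjusted p over 16662 genes, in R 4.3.3. TMM factors enter the CPM, 2 was the prior count on the log2 scale, ± is the SD, and standard errors are the log2 change divided by the root of F. The script was tested on simulated data. Alternatives were DESeq2 1.42.0, limma 3.58.1 (voom), other scalings, filters and fits, a replicate block and leaving out libraries. Exon lengths came from GENCODE M21. The 10 genes and all lists were chosen with earlier results of these data known. Genes outside the 10 were named by a rule: the 4 smallest p among calls of each pathway list, and the 2 nearest profiles of each gene (mean log2 CPM of at least 1, leaving out pseudogenes, antigen receptor segments and predicted genes). Other genes called in a list are given by name alone, and those named for their values are marked in the text. Some genes that the rule selects are not reported here.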

Additional observations from a re-analysis of the deposited data

Results flagged for a closer look

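In 2 of the 20 sets of 4 libraries examined, 1 library lay far from the other 3 by Dixon's test, which chance does in about 1 in 20 sets. Rel had 122.99 CPM in PERK-deficient library 4 and 42.6 CPM in the next highest library, a gap of 0.958 of the group's range, past the 95% critical value. Nfkb1 had 107.1 CPM in the same library and 57.2 CPM in the next, a gap of 0.854 of the range. The pan-leukocyte, mast cell, dendritic cell, B cell and T and NK cell marker sums were also highest in that library. So were the monocyte and macrophage, blood progenitor and simple epithelium sums. The neutrophil, endothelial, fibroblast and mural, and melanocyte and melanoma sums were not. The part of these cells in the values was not tested.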

How the results depend on the processing

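Main counts were 1277 genes higher and 1022 lower, and among the lists 5 of the 10 genes, 5 ligands, 4 receptors, 8 adaptors and kinases, 3 other inhibitors and 13 targets higher. Upper-quartile factors gave 653 lower genes and 5 other inhibitors, DESeq2 also gave 5 other inhibitors, and library totals alone gave 3 ligands higher and 1 kinase (Ikbkg) lower. Of all calls 68.7% were higher with upper-quartile factors and 47.7% with library totals, against 55.5% with TMM. Without a filter 3 of the 10 genes and 3 ligands passed. A filter of 10 CPM in 4 libraries left 560 lower genes, 1 ligand, 1 receptor, 5 adaptors and kinases and 7 targets. With the replicate block 127 genes were higher and 81 lower. Under it 1 of the 10 genes (Tnfaip3), 0 ligands, 0 receptors, 2 adaptors and kinases, 0 other inhibitors and 3 targets passed. Whether the shared replicate numbers pair the libraries stayed undecided. Deviations of same-numbered libraries correlated at -0.00906, 0.0982 and -0.204 over 16662 genes, and 1 of 3 scramble libraries correlated best with its own number. With only 3 shared numbers, these correlations cannot exclude pairing. Without both libraries numbered 4, a setting chosen after seeing the data, 779 genes were higher and 500 lower, with 1 ligand, 3 adaptors and kinases, 0 other inhibitors and 8 targets higher. Leaving out 1 library at a time gave 639 to 1372 higher and 439 to 1244 lower genes. The ranges of members of each list called higher were 3 to 6 of the 10 genes, 0 to 4 ligands, 3 to 4 receptors, 3 to 10 adaptors and kinases, 1 to 5 other inhibitors and 7 to 15 targets, with 0 to 1 adaptors and kinases lower. Direction turned without PERK_KO replicate 4 for Nfkb1, Relb and Map4k1, whose log2 changes ran from -0.0022 to 0.46, -0.063 to 0.71 and -0.033 to 0.72 when 1 library was left out. Without both libraries numbered 4, Nfkb1 was at -0.013, Relb at -0.13 and Ikbkb at -0.078. The small log2 differences of Chuk, Ikbkb and Nfkbib changed sign too. With library totals Chuk was at -0.031 and Ikbkb at -0.037, under the replicate block Chuk was at -0.12, and with the stricter filter Nfkbib was at 0.025. With 1 library left out they ran from -0.060 to 0.11 (Chuk), -0.054 to 0.12 (Ikbkb) and -0.14 to 0.020 (Nfkbib). The cause was not tested. Leaving out 1 library raised the number of genes tested to between 17118 and 17384, and the stricter filter lowered it to 9132.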
